A study of Mus musculus with 2 samples.

Results

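Imprinted genes are those that the cell reads from 1 parental copy, chosen by whether the copy came through egg or sperm. A list of 47 such genes and their close neighbours was followed through total RNA sequencing of mouse embryonic forebrain, and 46 of them, from 17 loci, were found by symbol among 69691 features in the gene tables. Peg13 was not analysed here. Where they are imprinted, by textbook knowledge, 23 of the 46 are expressed from the paternal copy and 18 from the maternal copy. The other 5 (Blcap, Gnas, Grb10, Ddc and Inpp5f) are expressed from either, depending on the transcript or tissue. Genes of the first 2 groups need not be imprinted in this tissue: the paternal copy of Ube3a, for example, is silenced in neurons. The tissue was forebrain of the B6NCrl strain at embryonic day 12.5, and each library was made from a pool of both sexes, 120 embryos in replicate 1 and 68 in replicate 2. The pools are biological replicates of 1 group with no treatment, genotype or other group beside it, so no test between conditions was possible and no p-value is given. Both parental copies come from the same inbred strain, so the allele of origin was not measured and is given as background only.

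Imprints are DNA methylation marks laid down in the germ line at control regions and kept after fertilisation. A control region usually governs several neighbours, some silenced on the maternal and some on the paternal copy, and often does so through a long noncoding RNA or by insulating an enhancer. Many imprinted genes act on growth of the embryo, and a good number are known for high levels in the developing brain. Because the same gene can use several starts, of which some are imprinted and some are not, the start that supplies the RNA matters as much as the level of the gene.

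The windows of 4 genes with germline-methylated starts are shown as examples, since the transcripts placed at or near them are described below. They are not the only such starts that carried most RNA of their gene: Kcnq1ot1 (100% of TPM) and Airn (91.8%) have windows without the hexamer marked here, and Nnat (99.5%) has a window with 1 match. Each sequence is 300 bases of the coding strand, 250 before and 50 after a RefSeq start on GRCm38.p6, printed 5′ to 3′. Capitals mark TGCCGC, the hexamer bound by the imprint-keeping zinc finger protein Zfp57 when methylated, which reads GCGGCA in all matches shown. Snrpn lies at chr7:60005150-60005449 (minus strand, the window RefSeq also gives for Snurf), Mest at chr6:30737800-30738099 (plus), Plagl1 at chr10:13090582-13090881 (plus) and Peg3 at chr7:6730370-6730669 (minus).
Snrpn: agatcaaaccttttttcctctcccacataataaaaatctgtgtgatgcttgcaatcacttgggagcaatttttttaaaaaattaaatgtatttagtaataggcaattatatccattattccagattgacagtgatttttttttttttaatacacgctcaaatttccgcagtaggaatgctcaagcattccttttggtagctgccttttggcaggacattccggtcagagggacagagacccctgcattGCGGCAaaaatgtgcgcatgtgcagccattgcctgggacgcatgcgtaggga
Mest: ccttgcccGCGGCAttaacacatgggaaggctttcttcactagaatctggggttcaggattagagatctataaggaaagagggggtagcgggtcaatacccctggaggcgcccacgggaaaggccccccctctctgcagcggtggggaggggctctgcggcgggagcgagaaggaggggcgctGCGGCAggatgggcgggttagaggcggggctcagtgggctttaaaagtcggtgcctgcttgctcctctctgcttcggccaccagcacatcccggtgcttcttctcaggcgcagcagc
Plagl1: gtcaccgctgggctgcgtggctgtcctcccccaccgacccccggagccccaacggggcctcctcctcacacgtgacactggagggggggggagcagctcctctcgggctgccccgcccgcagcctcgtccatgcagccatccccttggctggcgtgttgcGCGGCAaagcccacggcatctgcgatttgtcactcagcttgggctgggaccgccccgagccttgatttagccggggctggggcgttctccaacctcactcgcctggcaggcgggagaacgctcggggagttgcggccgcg
Peg3: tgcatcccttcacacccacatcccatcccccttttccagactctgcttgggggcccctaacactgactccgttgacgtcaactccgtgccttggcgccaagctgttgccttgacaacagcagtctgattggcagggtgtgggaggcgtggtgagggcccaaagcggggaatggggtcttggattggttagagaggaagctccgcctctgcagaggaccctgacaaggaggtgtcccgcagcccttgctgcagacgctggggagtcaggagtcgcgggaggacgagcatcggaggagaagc
The match begins 2 bases before the RefSeq start in Snrpn, 242 and 67 bases before it in Mest, and 90 bases before it in Plagl1. The Peg3 window holds no match. Searched on both strands, the hexamer was found in 11.6% of 32817 RefSeq promoters of this length, and in 1.53% it occurred 2 or more times. Peg3 and Usp29 run in opposite directions from starts 164 bases apart, and 263 bases of their windows are the same. RefSeq windows were present for 38 of the 46 genes, though not every window matched an annotated start. Windows were kept where their start group, as defined below, held 50% or more of the gene's TPM. Of several such windows in a gene, that of lowest coordinate was used, which need not be the most used start. The window held the hexamer in 4 of 13 paternal, 5 of 13 maternal and 1 of 4 mixed genes. The hexamer contains a CG, and these windows were richer in CG than promoters in general. Their median number of CG pairs was 13 in paternal, 23 in maternal and 28.5 in mixed genes, beside 7 in all promoters. The part of CG content in the hexamer counts was not tested. A match is a string of letters and not a measured binding site.

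The 46 listed genes were abundant in this tissue as a set. At 1 TPM (a level scaled for transcript length and for the library's total) or more in both replicates, 43 of 46 were detected, beside 34.5% of all named genes and 60.0% of protein-coding genes. Their median level was 41.1 TPM, against 4.60 TPM for protein-coding genes and 21.6 TPM for those protein-coding genes that were detected. At 100 TPM or more stood 15 of the 46, beside 7.80% of protein-coding genes, and 23 ranked in the top 10% of named genes. Since the list holds genes known from brain and embryo, these counts describe the list and are no test of imprinting. A further list of imprinted genes, described at the end, had a lower median of 9.45 TPM.

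**Figure D1:**
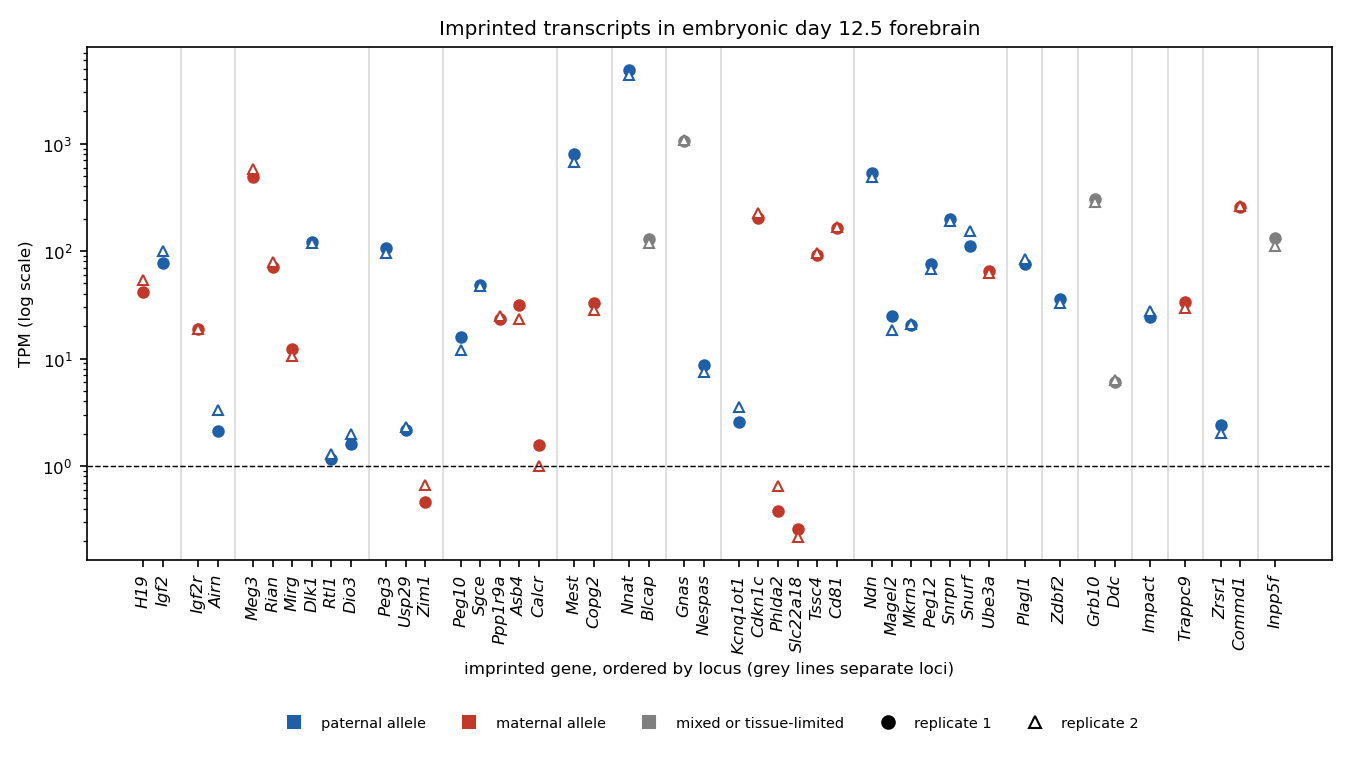
TPM on a log axis of each imprinted gene in replicate 1 (filled circles) and replicate 2 (open triangles), ordered by locus and coloured by the allele known to be expressed, with a dashed line at 1 TPM. Nnat stands highest at 4819 and 4345 TPM, and Zim1, Phlda2 and Slc22a18 lie under the line in both replicates.

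All 23 paternally expressed genes were detected, with a median of 34.6 TPM. Of the 18 maternally expressed genes 15 were detected, with a median over all 18 of 31.0 TPM, and the 5 mixed genes had a median of 124 TPM. The paternal and maternal medians lay close to each other in each pool, 36.0 against 33.2 TPM in the first and 33.2 against 28.9 TPM in the second. The sums did not, because single genes dominate them: the paternal genes summed to 7103 and 6506 TPM and the maternal genes to 1535 and 1666 TPM. The order of the medians rests on the 3 lowest maternal genes: without them the maternal median was 47.8 TPM. Nnat alone held 46.9% and 44.5% of the TPM of all 46 genes.

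The 3 genes under 1 TPM are maternally expressed genes best known from the placenta or other tissues. Zim1, a zinc finger gene beside Peg3, had 0.46 and 0.66 TPM from 32 and 46 expected counts. Phlda2, a pleckstrin-homology protein that limits placental growth, had 0.38 and 0.65 TPM from 5 and 9 counts. Slc22a18, a membrane transporter, had 0.26 and 0.22 TPM from 6 counts in each pool. The counts are above 3 in each library, so these transcripts were present at very low levels, but the depth gives no precision on them.

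Nnat (chr2:157560078-157562522), which encodes the small membrane proteolipid neuronatin of early neurons, lies inside an intron of Blcap on the opposite strand. Nnat had 4819 and 4345 TPM in the pools, in the order replicate 1 and replicate 2 used from here on, and Blcap had 128 and 119 TPM. Nnat was 37.1-fold above its host, and the genes share no exonic base. Almost all of its TPM, 99.5%, came from the most upstream start, mostly as Nnat-202 at 61.6 ± 0.58% (SD, n = 2) and Nnat-205 at 27.0 ± 0.93%.

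Other paternally expressed genes of high level were Mest, Ndn, Snrpn and Dlk1. Mest (chr6:30723547-30748465), an alpha/beta-hydrolase family gene, had 796 and 675 TPM. Its neighbour Copg2, a coat protein of Golgi vesicles, had 32.9 and 28.1 TPM, so that Mest was 24.1-fold higher. These genes end tail to tail and share 912 exonic bases, 23.1% of Mest and 17.8% of Copg2. The sources used here do not say whether the counting used strand, so reads in that stretch could have been given to either gene.

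The Snrpn-Ube3a locus on chromosome 7 is the region lost or silenced in Prader-Willi and Angelman syndromes. Its paternally expressed genes spread widely in level. Ndn, which encodes the growth-restraining protein necdin of postmitotic neurons, had 532 and 493 TPM. Magel2, a ubiquitin ligase partner of the same MAGE family, lies 26.7 kb away and had 24.8 and 18.3 TPM, so Ndn was 23.8-fold above it. Mkrn3, a ring-finger protein known as a brake on puberty, had 20.6 and 21.03 TPM, while Peg12, also called Frat3, had 75.1 and 67.8 TPM. Snrpn, the SmN protein of brain spliceosomes, had 197 and 191 TPM, 3.02-fold above Ube3a, the ubiquitin ligase whose paternal copy is silenced in neurons, at 65.2 and 63.1 TPM. Ube3a shares 8.74% of its exonic bases with the antisense RNA Snhg14, the transcript known to silence it, which had 65.7 and 60.0 TPM. Snurf, the upstream reading frame of the Snrpn message, was listed at 112 and 154 TPM, but its 216 bases lie wholly within Snrpn exons. The split of reads between Snrpn and Snurf is therefore uncertain.

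In the Dlk1-Dio3 locus on chromosome 12, maternal Meg3 had the highest level, followed by paternal Dlk1 and maternal Rian, and paternal Rtl1 and Dio3 had the lowest. Meg3, the first of the maternal noncoding RNAs, had 487 and 581 TPM. Rian, which begins 62.9 kb after Meg3 begins and hosts small nucleolar RNAs, had 71.3 and 79.3 TPM. Mirg, which begins 189 kb after Meg3 begins and hosts a microRNA cluster, had 12.3 and 10.6 TPM. The level was thus lower with each step along the locus in both pools, and Meg3 was 7.09-fold above Rian. On the paternal side, Dlk1, a Notch-like membrane protein that holds precursor cells undifferentiated, had 122 and 119 TPM, 4.44-fold below Meg3. Rtl1, a retrotransposon-derived coding gene needed in the placenta, had 1.16 and 1.3 TPM. Dio3, the deiodinase that inactivates thyroid hormone, had 1.6 and 1.99 TPM.

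Rtl1 lies opposite a series of maternal microRNA hairpins, and this arrangement can be read from the sequences. Of the RefSeq microRNAs, 11 mature arms from 6 hairpins lie on the other strand of its exon. The reverse complement of all 11 is found in the Rtl1 transcript over their whole length of 21 to 23 bases. This follows from their position and is no separate result. One arm of each hairpin is shown with its seed, bases 2 to 8, in capitals.
miR-431-5p: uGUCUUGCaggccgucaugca
miR-433-3p: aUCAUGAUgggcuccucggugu
miR-127-3p: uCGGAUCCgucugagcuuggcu
miR-434-3p: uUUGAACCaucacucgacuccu
miR-432: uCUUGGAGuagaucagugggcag
miR-136-5p: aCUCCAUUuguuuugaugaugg
The 11 arms have 11 different seeds, and their matches run along the Rtl1 transcript from position 164 (miR-136-3p) to position 5072 (miR-431-5p), counted from its annotated 5′ end. Mature microRNAs were not measured, because RNA above 200 bases was selected. The hairpins' own entries, present for 5 of the 6, were at 0 counts, and 4 of these had an effective length of 0, so that no read could be given to them.

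The H19-Igf2 locus had moderate levels. Igf2, the fetal insulin-like growth factor, had 76.9 and 99.9 TPM, and H19, the noncoding RNA 72.6 kb away that shares its enhancers, had 41.9 and 53.7 TPM. Igf2 was 1.85-fold above H19, and both were higher in replicate 2. Igf2r, the receptor that removes this factor, had 19 and 18.7 TPM. Airn, the paternal noncoding RNA that silences Igf2r elsewhere in the embryo, had 2.12 and 3.35 TPM from 34 and 63 counts. Igf2r was 6.89-fold above it. The length used for Airn was 893 and 997 bases, in a gene spanning 119 kb. Its level is thus that of the annotated exons, and unspliced Airn RNA outside them was not counted. The annotated exons of Airn and Igf2r share no base.

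In the Kcnq1ot1 locus the maternally expressed genes differed widely in level. Cdkn1c, the cyclin-dependent kinase inhibitor p57 of cells leaving the cycle, had 202 and 226 TPM. Cd81, a tetraspanin, had 163 and 168 TPM, and Tssc4, a spliceosome assembly protein, had 92.7 and 96.1 TPM. Phlda2 and Slc22a18 were under 1 TPM, as given above, and Cdkn1c was 415-fold above Phlda2. The paternal noncoding RNA Kcnq1ot1 had 2.58 and 3.57 TPM, 69.5-fold below Cdkn1c. Its low TPM came from 4388 and 6312 expected counts spread over an entry 84395 bases long, so it drew more reads in replicate 1 than many genes of higher TPM, among them Dlk1 with 3174.

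In the Peg3 locus the paternal gene Peg3 stood far above its neighbours, whereas in the Peg10-Sgce locus 4 of the 5 genes lay closer together and Calcr was far lower. Peg3, a zinc finger protein named for its paternal expression, had 106 and 96.1 TPM. Usp29, a ubiquitin protease gene on the other strand, had 2.17 and 2.32 TPM, 45.1-fold below Peg3. Its single placed transcript, Usp29-201, begins at chr7:6961160, far from the RefSeq start beside Peg3, so this level is not that of RNA shown to come from the shared window. Peg3 was 181-fold above maternal Zim1. Sgce, the epsilon-sarcoglycan mutated in myoclonus-dystonia, had 48.1 and 47.1 TPM. Peg10, a retrotransposon-derived gene that begins 0.099 kb from Sgce on the other strand, had 16.0 and 11.9 TPM, 3.42-fold below Sgce. The maternal genes farther out were Ppp1r9a, the actin-binding neurabin, at 23.1 and 24.8 TPM, Asb4, a ubiquitin ligase subunit, at 31.7 and 23.5 TPM, and Calcr, the calcitonin receptor, at 1.55 and 1.00 TPM.

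Among the remaining loci, Gnas, which encodes the stimulatory G protein alpha subunit, had 1053 and 1079 TPM. Its antisense RNA Nespas had 8.63 and 7.47 TPM, and 31.4% of its exonic bases overlap Gnas. Grb10, an adaptor that restrains insulin and growth factor receptors, had 308 and 285 TPM, 48.0-fold above Ddc, the amine-synthesising decarboxylase next to it, at 5.99 and 6.37 TPM. Plagl1, a zinc finger factor known as a hub of imprinted gene networks, had 76.5 and 83.9 TPM. Commd1, a copper and NF-kappaB regulator, had 257 and 261 TPM, 117-fold above the paternal retrogene Zrsr1 in its intron, at 2.40 and 2.04 TPM. Of the exonic bases of Zrsr1, 9.17% overlap Commd1. Inpp5f, an inositol phosphatase, had 132 and 113 TPM. Impact, a translation regulator of neurons, had 24.4 and 27.4 TPM, Zdbf2 had 36.0 and 33.2 TPM, and Trappc9, a vesicle tethering subunit, had 33.5 and 29.7 TPM.

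Neighbours within a locus were then compared pair by pair. A pair counted as different where the sign of the log2(TPM + 1) difference was the same in both pools and each difference exceeded the larger replicate difference of its members, which is a rule on spread and not a test. The pairs were a chosen list and not all possible ones, so the counts below depend on that choice. All 20 listed pairs with both members in the tables met it. Among the 12 pairs with opposite expressed alleles, the paternal gene was the higher in 5 (Igf2, Peg3, Sgce, Mest and Snrpn) and the maternal gene in 7 (Igf2r, Meg3, Rian, Mirg, Asb4, Cdkn1c and Commd1). Ratios of mean TPM within these 12 ran from 1.85-fold for Igf2 over H19 to 181-fold for Peg3 over Zim1. No allele, as labelled from textbook knowledge, was the higher one throughout. The noncoding RNA was the lower member in the Igf2-H19, Igf2r-Airn and Kcnq1ot1-Cdkn1c pairs and the higher one in the Meg3-Dlk1, Rian-Rtl1 and Mirg-Dio3 pairs. For Airn this holds for its annotated exons only. Pairings of other members in the same loci can go differently. Dlk1 was above Rian (122 and 119 against 71.3 and 79.3 TPM). Kcnq1ot1 was above Phlda2 (2.58 and 3.57 against 0.38 and 0.65 TPM). Magel2 was below Ube3a (24.8 and 18.3 against 65.2 and 63.1 TPM).

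**Figure D2:**
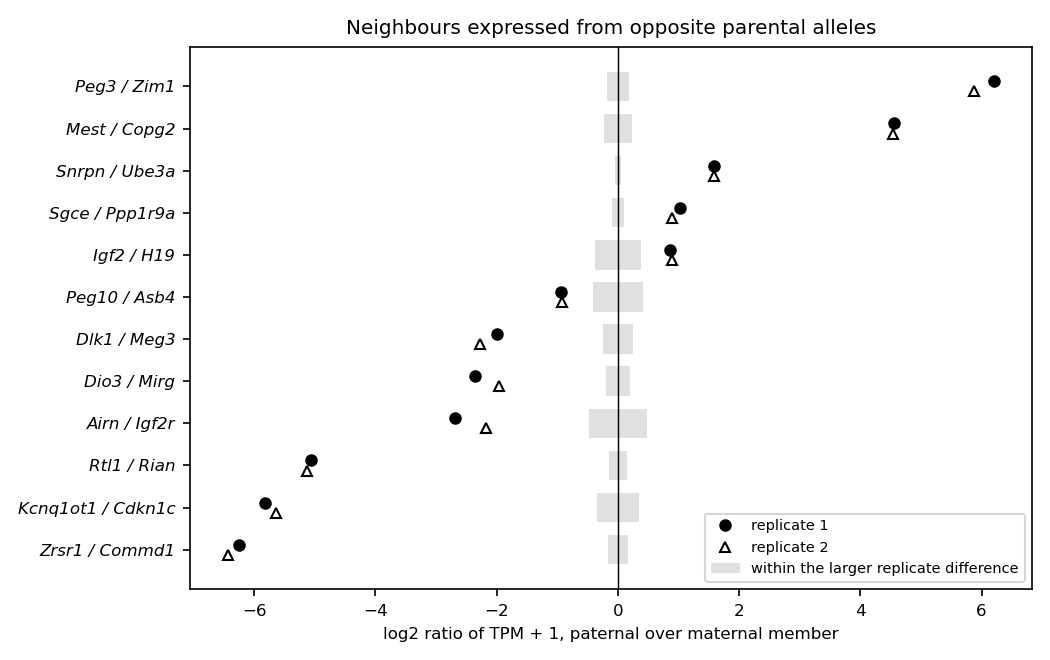
Difference of log2(TPM + 1), paternal minus maternal member, for 12 chosen pairs of neighbours in replicate 1 (circles) and replicate 2 (triangles). Grey bars span the larger replicate difference of either member, and all points lie outside them, 5 pairs to the right and 7 to the left.

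Which start supplied the RNA was read from the share of the gene's TPM given to each transcript, with transcripts whose first bases follow each other within 500 bases put together. Of 32 genes at 1 TPM or more with several transcripts, 20 had a transcript holding 50% or more, and 10 had one holding 80% or more. The leading transcript was the same in both pools in 29 of the 32. These shares come from the authors' quantification against annotated transcripts, and short and long transcripts of 1 start are hard to separate. They do not show whether a start was capped or methylated.

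Grb10 and Gnas, known to use starts of different imprinting, each drew on 1 start almost alone. In Grb10, the upstream start, maternal in most tissues, held 96.0 ± 0.67% as Grb10-201. The start 9.43 kb further on held 2.89% and 2.34%, and the start group after it 0.92% and 0.53%. Which of these belongs to the start known to be paternal in neurons was not tested. In the RefSeq windows, the upstream start had 45 CG pairs and 1 TGCCGC. The start 9.43 kb on had 9 CG pairs and no match. In Gnas, the start of the biallelic G protein message held 97.0 ± 0.38%, most of it as Gnas-208 at 83.6%. The start 43.3 kb after the first one, in the region of the paternal exon 1A, held 1.61 ± 0.21%, and that 13.5 kb after it 0.12% and 0.13%. The most upstream start, of the maternal Nesp RNA, held 0.44 ± 0.04%. Nespas overlaps Gnas exons in that upstream part on the other strand. Whether the counting used strand is not known, so the Nesp share is uncertain.

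The main transcript of Inpp5f began far inside the gene. Inpp5f-208, which begins 76.2 kb after the first start and lies in the 3′ part of the gene, held 86.0 ± 0.04% of TPM, while the transcripts from the first start held 6.63 ± 0.95%. Inpp5f-203, which begins 77.2 kb after the first start, held 6.53 ± 1.02%. A short form of Inpp5f that starts inside the gene is known to be paternally expressed in brain. Which of these internal starts belongs to that form was not tested. Of the expected counts, which are not scaled for length, Inpp5f-208 held 81.1% and 80.6%.

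The germline-methylated starts printed above carried most of the RNA of their genes. The Mest window belongs to a start group holding 98.1 ± 0.17% of TPM, with Mest-211 alone at 95.1%, and upstream starts, 14.5 kb or less before it, held a mean of 0.03% or less each. The Plagl1 group held 97.6 ± 1.21% and Peg3's 99.8%, the latter mainly as Peg3-201 at 73.8 ± 1.47% and Peg3-203 at 22.6 ± 1.34%. Snrpn drew 89.8 ± 0.37% from Snrpn-201 and 10.2 ± 0.37% from Snrpn-202, which starts 135 kb further upstream. The annotated start of Snrpn-201, chr7:60005111, lies just downstream of the printed window. It was matched to the window's RefSeq start by the limit of 100 bases. Upstream exons of Snrpn are known in brain.

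The TPM of Igf2 was spread over several starts. Its most upstream start held 38.3 ± 1.36%, the most downstream start, 13.8 kb away, 31.2 ± 0.08%, and starts between them 16.9 ± 0.73%, 9.63 ± 0.13% and 3.92 ± 1.00%. The most downstream entry, Igf2-208, is a noncoding processed transcript of 958 bases in the 3′ part of the gene. Its share therefore need not be RNA from a separate start. In Meg3, the first start held 72.4 ± 1.27%, with the short Meg3-205 at 45.1 ± 0.76%. The order of such shares changes with length. By expected counts the most upstream Igf2 start held 15.0% and 15.8%, and Igf2-205, of 4722 bases and 9.63% of TPM, led with 32.2% and 32.9%. Meg3-209, of 14548 bases, held 3.69% of TPM but 30.2% and 28.3% of the counts. In Zdbf2 the same holds: Zdbf2-203, of 611 bases, held 71.9 ± 1.69% of TPM but 10.0% and 8.99% of the expected counts, and the rest went to Zdbf2-202, of 12629 bases.

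**Figure D3:**
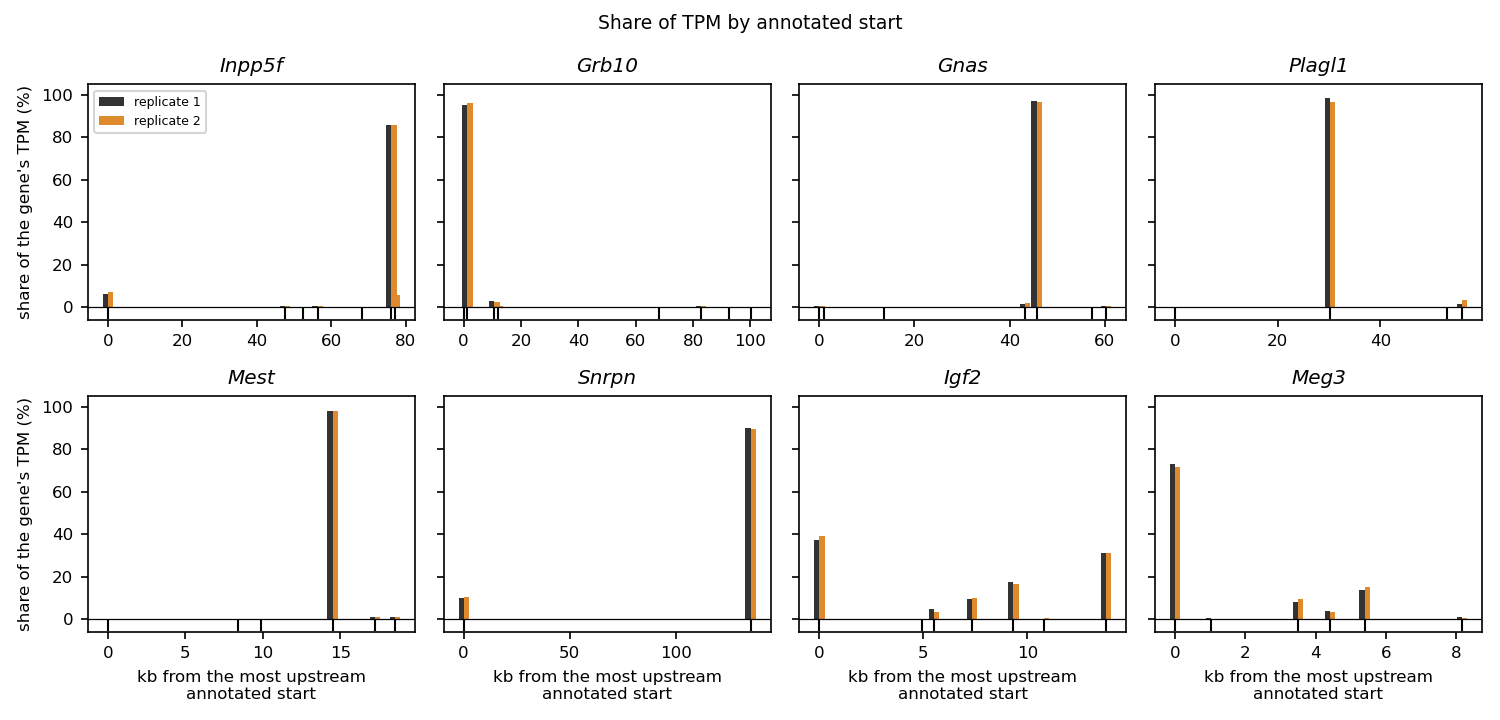
Percent of each gene's TPM by annotated start group in replicate 1 (dark bars) and replicate 2 (orange bars), against the distance in kb from the most upstream annotated start, with ticks below 0 marking the starts. A single start carries 86.0% or more in Inpp5f, Grb10, Gnas, Plagl1, Mest and Snrpn, whereas Igf2 and Meg3 are spread over several.

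A few transcript shares differed widely between the pools. Sgce-205 held 54.9% in replicate 1 and 33.8% in replicate 2, while Sgce-211 went from 0.01% to 15.8%, although the Sgce gene level moved only from 48.1 to 47.1 TPM. The deposited posterior mean shares differed less, 47.8% and 31.1% for Sgce-205 and 5.11% and 15.2% for Sgce-211. Ddc-202 held 90% and 60.0%, or 59.3% and 35.7% by posterior mean. In Nespas, 202 led in replicate 1 (47.3% against 26.0%) and 203 in replicate 2 (60.7% against 38.0% in replicate 1).

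Between the pools no imprinted gene passed the main limit, but the median size of the differences was larger than over all named genes. None of the 43 with a mean of 1 TPM or more differed past 1.5-fold on the log2(TPM + 1) scale, beside 4.07% of all 15192 named genes at that level (2.59% higher and 1.48% lower in replicate 2). In a list of 43, none is near that share. With expected counts scaled by TMM, Airn (log2 ratio 0.80) and Calcr (-0.64) did pass it, both at low counts. Past a lower limit of 0.32 on this log2 scale were 9 of 43, beside 12.9% of named genes. The 5 higher in replicate 2 were Airn, Snurf, Igf2, Kcnq1ot1 and H19 (beside 8.76% of named genes), and the 4 lower were Magel2, Asb4, Peg10 and Calcr (beside 4.11%). The median log2 ratio was -0.03 over the 43 and 0.01 over all named genes, and the median size of the ratio regardless of sign was 0.15 against 0.10. With 1 pool on each side these are differences between libraries.

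For Igf2 the deposited intervals, of a level that the sources used here do not state, were 70.1 to 80.8 TPM in the first pool and 91.7 to 104 TPM in the second. For H19 they were 38.4 to 45.0 and 49.5 to 56.5 TPM. The intervals of the pools did not overlap for 17 of the 43, these genes included, beside 13.9% of named genes, and they cover read assignment and counting only. Highly counted genes have narrow intervals.

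**Figure D4:**
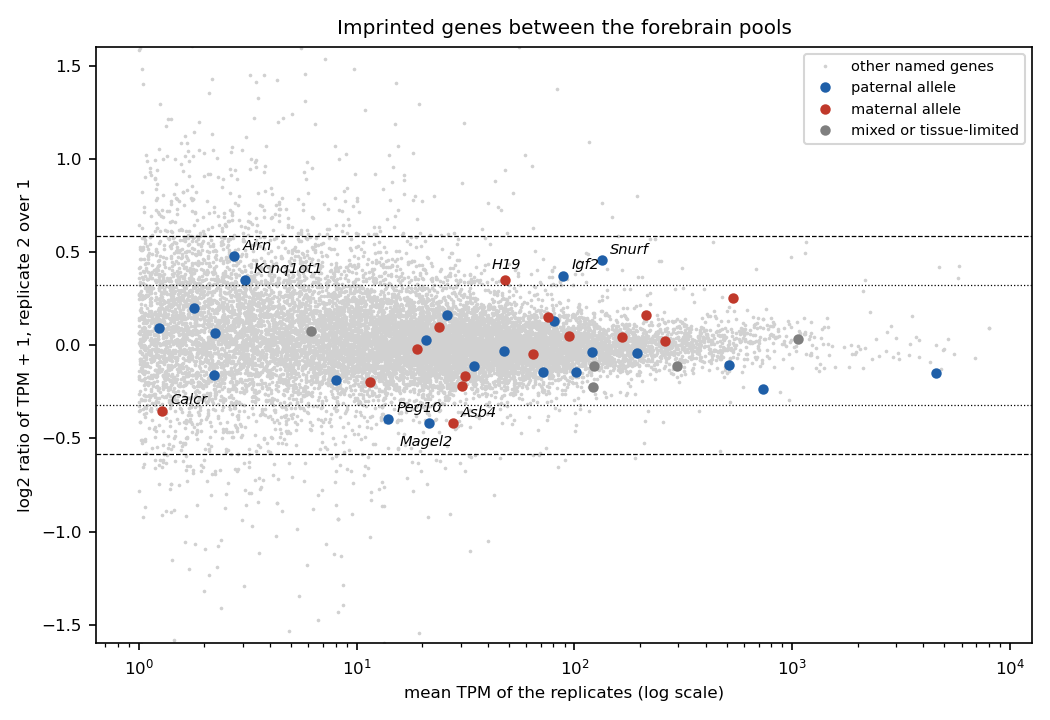
Log2 ratio of TPM + 1, replicate 2 over replicate 1, against mean TPM on a log axis, for imprinted genes coloured by expressed allele over the other named genes in grey (147 named genes lie outside the plotted range). Dotted and dashed lines mark 0.32 on the log2 scale and 1.5-fold, and the 9 imprinted genes with a name beside their point lie between these limits.

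The pools also differed in markers of tissue parts and of other cell types. All 12 markers of meninges and mesenchyme, tissues where Igf2 and H19 are known to be high, were higher in replicate 2 (summed TPM 947 and 1104). So were 7 of 8 of choroid plexus and roof plate (158 and 256) and 7 of 8 of erythroid cells (6347 and 8628), against 4 of 8 of endothelium (134 and 139). These are counts of sign, and Postn, at 12.52 and 12.53 TPM, is among those higher. Past the lower limit used above, 7 of the meningeal and mesenchymal markers were higher, beside 8.76% of named genes. The counts past it were 6 for choroid plexus and roof plate, 6 for erythroid cells and 0 for endothelium. All 8 markers of the ventral telencephalon were lower in replicate 2 (614 and 411), 7 of them past this limit, beside 4.11% of named genes. That list was added after its genes had been seen to differ. Of 8 hypothalamic markers, added for Magel2, Asb4, Calcr and Peg10 since these are known from that region, 7 had 1 TPM or more. Of these 6 were higher in replicate 2, 2 of them past the limit. The 1 lower, Nkx2-1, is shared with the ventral telencephalon and had 54.3 and 30.7 TPM. The part of these tissues in the differences of the imprinted genes was not tested, and in bulk tissue fewer cells of a type and less RNA per cell cannot be told apart. All 8 forebrain markers were detected and none of 8 Hox genes of hindbrain and spinal cord was, of which 3 were at 0 in both pools. No marker of the other lists was at 0 in both.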

How the data were processed

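Total RNA of 2 forebrain pools was measured, with ERCC spike-ins and selection for RNA above 200 bases, per the labels. Per the text deposited with the tables, build mm10 and GENCODE M4 were used; the aligner, the quantifier and the strand setting were not given in the sources used here. Gene by gene, the authors deposited expected counts (estimated reads per feature), TPM (scaled to the total over all features), FPKM, and for each transcript its percent of the gene's TPM. The deposited bounds of the posterior mean TPM are an interval whose level is unstated and are treated as a score. The expected counts summed to 33711030 and 34578499 over all features, the precision of low genes being set by counting error.

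Symbols and positions came from GENCODE M21, which uses the same build, through the identifier stripped of its version (42462 names). The members and gene lists were chosen with earlier results of these data known. All listed genes were named, together with the 3 highest genes of the closing section's lists (marker lists are given by counts and sums) and transcripts at a mean share of 10% or more where they bear on a result. Differences were taken on log2(TPM + 1), which understates the change of low genes. Means and SDs are over 2 pools. Promoters and microRNAs are from RefSeq (GRCm38.p6), and a promoter was matched to an annotated start within 100 bases. Protein sequences were planned and not used here. Whole numbers rounded from the expected counts entered the TMM factors of edgeR 4.0.16 and the size factors of DESeq2 1.42.0, used for scaling only. Procedures were tested on simulated data. Other steps used R 4.3.3, Python 3.11.15, numpy 2.4.6, pandas 2.3.3 and matplotlib 3.10.9. Alternatives were other thresholds, pseudocounts, scalings and units, and leaving out a pool.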

Additional observations from a re-analysis of the deposited data

How the results depend on the processing

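No paired analysis was possible because the 2 pools form 1 group. The detected count stayed at 43 with posterior means, rescaling to exclude spike-ins and unnamed features, a threshold of 0.5 TPM, or either pool left out, and was 36 at 5 TPM. The paternal median was 37.9 in place of 34.6 TPM on rescaling, and the maternal median was 47.8 TPM when only genes at 1 TPM or more were kept, since the 3 genes left out are the lowest maternal ones. That change turns the order of the paternal and maternal medians, which therefore rests on those 3 genes. With either pool left out the medians ranged from 33.2 to 36.0 and from 28.9 to 33.2 TPM. All 20 pair calls held with posterior means, rescaling, a pseudocount of 0.1 and FPKM. No gene differed past 1.5-fold between pools with posterior means, rescaling or no filter, but 2 did, Airn and Calcr, with a pseudocount of 0.1, with counts scaled by TMM and with counts scaled by DESeq2, and 9 did past the lower limit of 0.32 on the log2 scale. Genes with a transcript at 50% or more numbered 20, or 17 with posterior shares, 21 to 24 with 1 pool left out, and 26 by expected counts, an alternative chosen after seeing the data. Depth limits Airn, Calcr, Phlda2, Slc22a18 and Zim1.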

Other observations

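A further list of imprinted genes outside the set above had a median of 9.45 TPM over the 29 in the tables, against 4.60 TPM for protein-coding genes. Of the 29, 19 were detected in both pools, a share near the 60.0% of protein-coding genes. The highest were Nap1l4 at 275 and 262 TPM, Bcl2l1 at 134 and 131 TPM, and H13 at 108 and 106 TPM. Ins2 and Slc22a2, known from other organs, were listed at 0 in both pools.

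The factors known to keep imprints in place were all detected, 8 of 8 beside 60.0% of protein-coding genes, with a median of 121 TPM. Trim28, the corepressor recruited by zinc finger proteins, had 308 and 331 TPM. Zfp57, whose known hexamer was searched for above, had 159 and 163 TPM, and Uhrf1, which brings the maintenance methyltransferase to replicated DNA, had 163 and 154 TPM.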
